A study of Mus musculus with 14 samples.

Results

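Mitochondrial ribosomal protein genes were described in mouse CD4 T cells polarized towards the Th2 type, with and without the Argonaute genes Ago1, Ago3 and Ago4. The genes were chosen by name: those whose symbol begins with Mrpl or Mrps followed by a digit, that lie outside the stretch of chromosome 4 (GRCm38) around the deleted genes, and that had at least 10 reads over all libraries. Of 22598 genes in the count tables, 78 had such a name and 77 met the rule. The one left out by its position was Mrps15 (chr4:126046925-126055532), which lies in the same stretch of chromosome 4 as the deleted genes. All 77 had enough reads to be tested, beside 11514 other genes.

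The mitochondrial ribosome makes the few proteins that mitochondrial DNA encodes, all of them core subunits of the respiratory chain and ATP synthase. Its RNAs come from mitochondrial DNA, while every one of its proteins is encoded in the nucleus, made in the cytosol and imported. Compared with bacterial ribosomes it has lost RNA and gained proteins, so its proteins fall into those with bacterial relatives and those added in mitochondria. T cells enlarge their mitochondria after activation, and mitochondrial translation is needed for their growth and effector function.

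The libraries form 4 groups. They are Th2 cultures labelled Ago134, meaning that Ago1, Ago3 and Ago4 are all knocked out, at day 14 (n = 3), wild-type Th2 cultures at day 14 (n = 3), Ago134 cultures at day 7 (n = 4) and wild-type cultures at day 7 (n = 4). All came from C57BL/6J littermates: naive CD4+ TCRb+ cells sorted from spleen were activated and polarized before total RNA was sequenced in paired ends. The series text names the later time as a different day in one place, and the sample labels' day 14 is used here. The labels do not say which libraries came from separate mice, so the p-values cover only how far these libraries spread, part of which may be technical.

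Total counts were 23326248 to 35803197 per library. Ago1 had 0 to 0.0603 CPM (counts scaled to equal library totals) in knockout libraries at day 14, against 2.07 to 3.72 CPM in wild type, and 0 CPM in every knockout library at day 7, against 3.68 to 5.35 CPM in wild type. Ago3 was lower in all knockout libraries (1.21 to 1.57 CPM, against 2.04 to 4.42 CPM in wild type at day 14; 1.73 to 2.16 CPM, against 2.84 to 4.43 CPM in wild type at day 7). Ago4 was not lower: at day 14 it had 2.38 to 4.76 CPM in knockout, against 0.372 to 2.81 CPM in the wild-type libraries, and at day 7 it had 2.74 to 3.53 CPM in knockout, against 0.358 to 0.836 CPM in the wild-type libraries. These counts are per gene and do not show which exons were deleted. Cd3e (185 to 396 CPM), Cd4 (145 to 457 CPM) and the Th2 regulator Gata3 (411 to 603 CPM) were present in all libraries, while the Th2 cytokine gene Il13 had 17 reads in all. Summed over whole lists, markers of other cell types ran from 1.11 to 42.0 CPM for NK cells, 1.00 to 130 CPM for mast cells and basophils, 1.17 to 28.6 CPM for myeloid cells, 6.32 to 20.98 CPM for CD8 T cells and 0.247 to 4.21 CPM for B cells. Within these lists and that of dendritic cells, Itgam, Itgax, Flt3, Xcr1, Ncr1, Ms4a2 and Mcpt8 were at 0 throughout. In bulk cultures a change in RNA per cell and a change in the mix of cells cannot be told apart.

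Levels per length spanned a wide range. Over all libraries the median gene stood at 94.1 CPM per kilobase of coding sequence. The highest were Mrps24, a protein of the messenger entry side of the small subunit, at 345 CPM per kilobase, Mrps34 at 225, Mrpl12 of the stalk that recruits translation factors at 222, Mrpl28 at 213 and Mrpl4, which lines the protein exit tunnel, at 202 CPM per kilobase. The lowest were Mrps36 at 3.57, Mrps33 at 2.76 and Mrpl23, another exit tunnel protein, at 0.668 CPM per kilobase. These low values are uncertain, because much of the coding sequence of the 3 genes also occurs in other annotated genes: 91.8% of the 50-base stretches of Mrps36, 81.4% of those of Mrps33 and 79.7% of those of Mrpl23. Of the 77 genes, 48 shared no such stretch. Mrps36, despite its name, is known as a subunit of the oxoglutarate dehydrogenase complex rather than of the ribosome.

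At day 7 most mitochondrial ribosomal protein genes had higher values in knockout than in wild-type cultures, but none passed the test over all genes. The median log2 fold change was 0.51 (quartiles 0.41 to 0.62), against -0.01 over all tested genes. It was above 0 for 76 of 77 genes, and for 49% of all tested genes. With edgeR's quasi-likelihood test and Benjamini-Hochberg adjustment over 11591 genes, 0 of the 77 were called at an adjusted p under 0.05, where 0.0949% of all genes were called (0.0518% higher and 0.0431% lower). The smallest adjusted p was 0.154. At an unadjusted p under 0.05, 45 were higher and 0 lower, beside 11.4% of all genes higher and 12.1% lower. DESeq2 called 3 higher, Mrpl30, Mrpl51 and Mrpl27 (4.42% of all genes called, 2.39% higher and 2.03% lower). limma-voom with sample weights called 67 higher (43.8% of all genes called, 20% higher and 23.8% lower). limma-voom without weights called 0 (0.112% of all genes called). In 36 of 77 genes every knockout library stood above every wild-type library, as for 9.27% of all tested genes. In 0 of 77 genes did all knockout libraries lie below all wild-type libraries, against 12.9% of all tested genes.

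Mrpl52, a protein added to the large subunit in mitochondria, had the highest log2 fold change at day 7. It stood at 15.6, 13.3, 18.1 and 42.0 CPM in knockout libraries 1 to 4, against 9.91, 9.96, 11.8 and 12.1 CPM in wild type. The groups did not overlap, and knockout library 4 stood far above the other three. The log2 fold change was 1.02 ± 0.34 (SE; edgeR adjusted p = 0.154), and 0.54 without knockout library 4. Mrpl30, a large-subunit protein with a bacterial relative, had 71.6, 63.3, 81.0 and 162 CPM in knockout, against 38.9, 47.4, 49.999 and 55.7 CPM in the wild type. Again no libraries overlapped and library 4 was the highest (log2 fold change 0.98 ± 0.27, edgeR adjusted p = 0.154; 0.61 without that library). Mrps33 of the small subunit had a log2 fold change of 0.91 ± 0.45 and Mrps36 one of 0.80 ± 0.36, both from few and uncertain reads (366 and 455 reads over all libraries).

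At the other end, Mrpl9, a large-subunit protein with a bacterial relative, was the single gene with a value below 0 at day 7. It had 90.2, 83.2, 81.0 and 72.1 CPM in knockout libraries, against 80.7, 83.4, 87.7 and 91.5 CPM in wild type, so the groups overlapped, with the lowest library a knockout and the highest a wild type (log2 fold change -0.07 ± 0.19). Next came Mrpl10, which anchors the stalk (0.16 ± 0.17), Mrps27 (0.21 ± 0.20), Mrpl49 (0.22 ± 0.21) and Mrps30 (0.23 ± 0.16). Mrps30 is named for the small subunit but is known to sit in the large one. In these genes the SE was close to or above the difference except for Mrps30. Without knockout library 4 the value of Mrpl9 was 0.002.

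**Figure D1:**
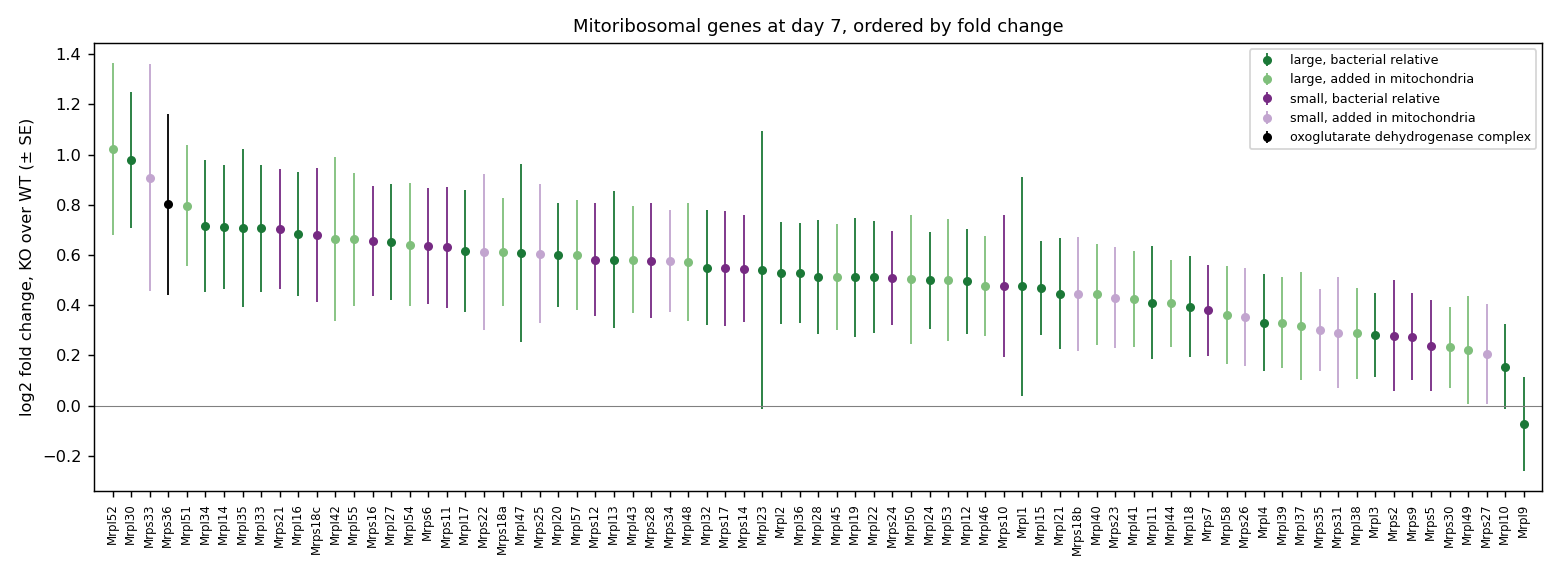
Log2 fold change (y axis, knockout over wild type at day 7, 4 libraries each) of the 77 genes, ordered from high to low on the x axis; bars are SE and colours mark the subunit and whether a bacterial relative is known. Of 77 points, 76 lie above 0, from 1.02 for Mrpl52 down to -0.07 for Mrpl9, and the colours are spread along the whole order.

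The classes of proteins had similar medians at day 7. The median log2 fold change was 0.53 for 29 large-subunit genes with bacterial relatives, 0.50 for 22 large-subunit genes added in mitochondria, 0.55 for 15 small-subunit genes with bacterial relatives and 0.44 for 10 small-subunit genes added in mitochondria. At day 14 they were 0.45, 0.44, 0.42 and 0.32 in the same order. Differences between classes were not tested. Restricting the list to the 48 genes with no shared stretch gave a median of 0.51 at day 7 and 0.42 at day 14.

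Genes with known special roles are given next. For Mrpl12 the knockout libraries at day 7 held 138, 123, 163 and 202 CPM, against 109, 100, 116 and 119 CPM in wild type, with no overlap (0.49 ± 0.21). Mrpl11, at the base of the stalk, had a value of 0.41 ± 0.22 and Mrps12, a protein of the decoding centre, one of 0.58 ± 0.22. Mrpl58, a release factor relative that frees stalled peptides and is built into the large subunit, had 0.36 ± 0.20. Of the 3 genes related to bacterial S18, Mrps18c takes the place of the bacterial protein in the small subunit. Mrps18b in the small and Mrps18a in the large subunit sit at places of their own and are counted above as added in mitochondria. In the order Mrps18a, Mrps18b and Mrps18c, their log2 fold changes at day 7 were 0.61 ± 0.22, 0.45 ± 0.23 and 0.68 ± 0.27. None of these was called (edgeR adjusted p = 0.155 for Mrps18a, 0.245 for Mrps18b and 0.165 for Mrps18c).

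Coding length went with the size of the difference. Mitochondrial ribosomal proteins are small: their coding lengths ran from 198 bases (Mrpl33) to 1329 bases (Mrps30) with a median of 595, against a median of 1396 over all tested genes. Across the 77 genes the log2 fold change at day 7 fell with the log of coding length (Pearson r -0.66, Spearman rho -0.68; a description across genes that share the same libraries). The 12 genes under 400 bases had a median of 0.71 and the 18 of 900 bases and over had 0.31. In the 4 length classes from short to long, the medians were 0.71, 0.58, 0.48 and 0.31 for mitochondrial ribosomal protein genes and 0.64, 0.46, 0.30 and -0.17 for all other tested genes. The 2 had the same sign in the 3 shorter classes and opposite signs in the longest, and the distance between them was 0.07 in the shortest class and 0.48 in the longest. The longest class is not matched in length, since the set ends at 1329 bases and tested genes reach 112081.

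When each library's trend over coding length was removed, the day 7 median was 0.15, with 68 of 77 genes above 0, beside a median of 0.01 and 50.5% above 0 over all tested genes. At an unadjusted p under 0.05, 1 gene was higher, beside 5.14% of all genes, and 0 were called (0.0863% of all genes called). With coding GC content removed as well, the median was 0.14 and 66 of 77 were above 0. The genes then ran the other way with length (r 0.34 with the length trend removed): the median was 0.07 in the shortest class and 0.21 in the longest. Coding length and genotype moved together in these libraries, and how much of the difference belongs to either was not tested beyond these fits.

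**Figure D2:**
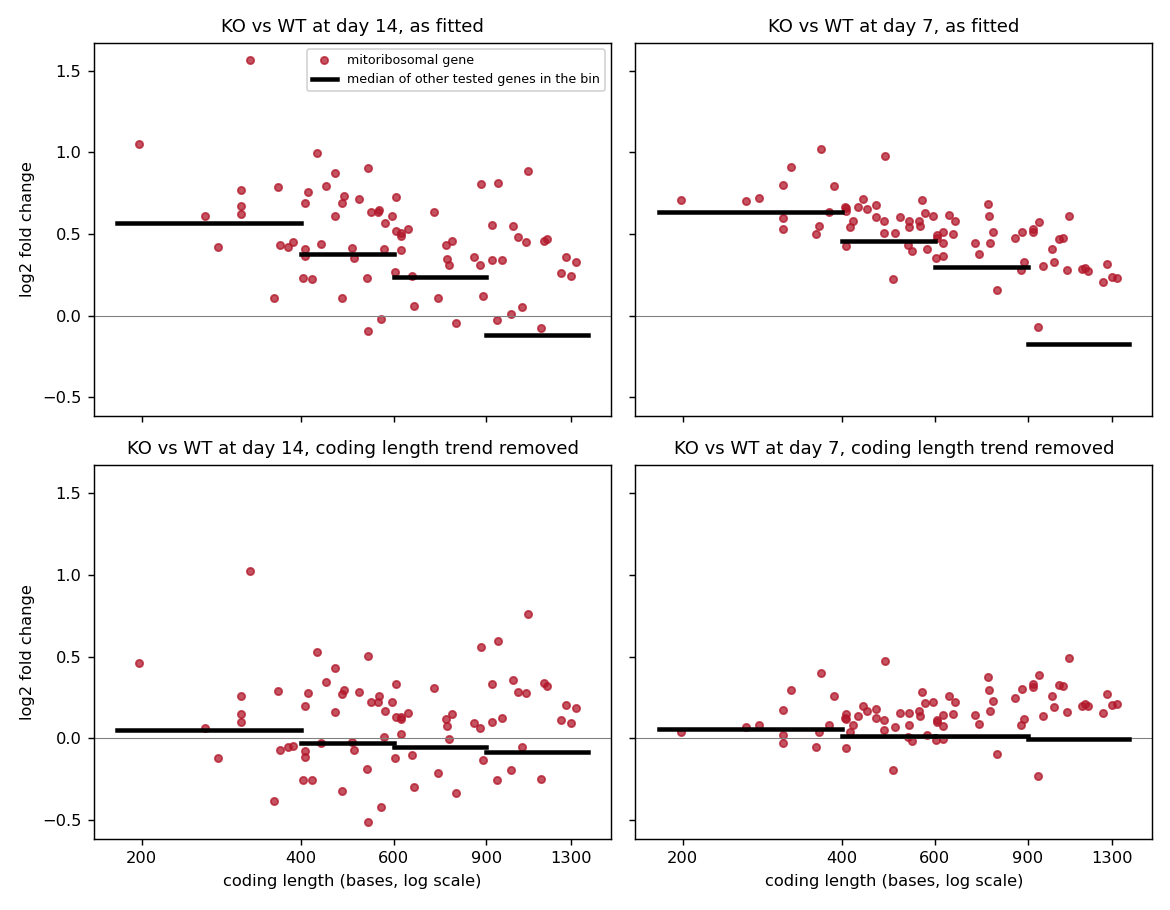
Log2 fold change of knockout over wild type (y axis) against coding length in bases (x axis, log scale) at day 14 (left) and day 7 (right), as fitted (top) and with each library's trend over coding length removed (bottom). Red points are the 77 genes and black lines the median of all other tested genes in 4 length classes; at day 7 that line falls from 0.64 to -0.17 as fitted and lies near 0 once the trend is removed.

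The trend itself differed between libraries. Per doubling of coding length, log2 CPM changed by 0.0713, 0.210 and -0.106 in knockout libraries at day 14, against 0.326, 0.199 and 0.375 in wild type. At day 7 the slope was 0.183, 0.230, 0.0422 and -0.153 in knockout libraries, against 0.483, 0.489, 0.368 and 0.280 in wild type. The groups overlapped at day 14 and did not at day 7. The 2 knockout libraries with a slope below 0, library 3 at day 14 and library 4 at day 7, were also those with the highest mitochondrial ribosomal protein levels. Their median gene stood 0.64 above its own mean on the log2 scale in both, while the other knockout libraries stood between -0.05 and 0.25 and the wild-type libraries between -0.37 and -0.04.

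The summed level of the 77 genes was 4651, 4738 and 6931 CPM in knockout libraries at day 14, against 4242, 4511 and 3726 CPM in wild type. At day 7 it was 4799, 4410, 5458 and 6859 CPM in knockout, against 3652, 3624, 4077 and 4335 CPM in the wild type. All knockout sums exceeded all wild-type sums within each day. Without knockout library 4 the median log2 fold change at day 7 was 0.38, with 77 of 77 genes above 0 and 12 higher at an unadjusted p under 0.05, beside 4.43% of all genes. Without knockout library 3 the day 14 median was 0.20, with 64 of 77 above 0 and 4 higher at an unadjusted p under 0.05, beside 6.13% of all genes. Summed T cell marker levels moved with these libraries: 4942 CPM in knockout library 4 at day 7, against 2740 to 3365 CPM in the other knockout and 2197 to 2651 CPM in the wild-type libraries. Its summed myeloid markers were 6.07 CPM, against 1.89 to 2.76 CPM in the other knockout and 1.17 to 2.42 CPM in the wild-type libraries. The part of these in the result was not tested.

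**Figure D3:**
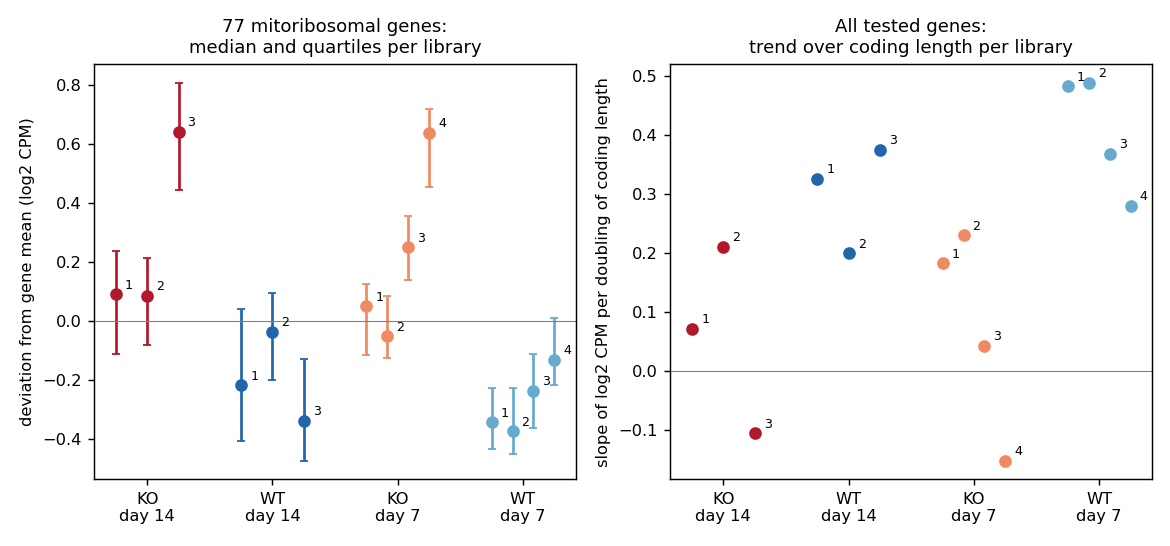
Left, the median (point) and quartiles (bar) of the 77 genes' deviation from their own mean in each of 14 libraries, in log2 CPM; right, the slope of log2 CPM per doubling of coding length over all tested genes. Numbers beside the points are the library numbers; knockout library 3 at day 14 and knockout library 4 at day 7 are highest on the left (0.64 each) and lowest on the right (-0.106 and -0.153).

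The labels name no sequencing sets. The file identifiers, taken in number order with a new set wherever a lane number came again, point to 2 sets. All knockout libraries at day 7, wild-type libraries 2 to 4 at day 7 and wild-type library 2 at day 14 form one, and the remaining libraries the other. Within one set the median log2 fold change was 0.50 at day 7 (without wild-type library 1) and 0.54 at day 14 (without wild-type library 2). With the set as a term the medians were 0.49 and 0.50, with 76 and 73 of 77 genes above 0. Sets differ within a group only through wild-type library 1 at day 7 and wild-type library 2 at day 14. The term therefore rests on these libraries and takes up their own deviations.

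At day 14 the picture was similar in direction, with wider spread. The median log2 fold change of knockout over wild type was 0.45 (quartiles 0.31 to 0.64), beside 0.01 over all tested genes, and 72 of 77 genes were above 0 (50.6% of all tested genes). edgeR called 0 of the 77, where 1.42% of all genes were called (0.845% higher and 0.578% lower). At an unadjusted p under 0.05, 34 were higher and 0 lower, beside 11.4% of all genes higher and 10.3% lower. DESeq2 called 6 higher (8.57% of all genes called, 4.67% higher and 3.9% lower): Mrpl33, Mrpl27, Mrpl48, Mrps17, Mrps14 and Mrps33. limma-voom called 12 higher with sample weights (16.9% of all genes called, 9.7% higher and 7.2% lower) and 0 without (3.62% of all genes called). In 25 of 77 genes all knockout libraries lay above all wild-type libraries, as for 9.71% of all genes.

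Mrpl33, the shortest of the set and a relative of a bacterial large-subunit protein, came closest to a call. It had 15.7, 14.5 and 22.0 CPM in knockout libraries at day 14, against 7.55, 8.78 and 8.84 CPM in wild type, without overlap. The log2 fold change was 1.05 ± 0.29 (edgeR adjusted p = 0.0767), and of its coding 50-base stretches 69.2% occur in other annotated genes. At day 7 Mrpl33 had 8.48, 9.46, 12.6 and 16.8 CPM in knockout, against 7.99, 6.28, 6.10 and 8.61 CPM in the wild type, where the groups overlapped (0.71 ± 0.25). The highest value at day 14 was that of Mrps33, 1.57 ± 0.53, from 1.36, 0.890 and 1.66 CPM in knockout libraries, against 0.558, 0.167 and 0.587 CPM in wild type.

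Wild-type library 3 at day 14 set several of the other values. Mrpl42 and Mrpl13, of the large subunit, had log2 fold changes of 1.00 ± 0.38 and 0.91 ± 0.31. Mrpl42 stood at 30.4, 25.9 and 41.7 CPM in knockout libraries, against 14.8, 8.48 and 25.8 CPM in wild type, where library 3 was the high one. Mrpl13 stood at 47.3, 39.1 and 63.5 CPM in knockout, against 22.8, 17.1 and 40.0 CPM in the wild type. Mrps22, of the small subunit, had 23.0, 26.4 and 35.3 CPM in knockout, against 10.1, 9.85 and 25.8 CPM in the wild type. Without wild-type library 3, 10 of 77 genes were called higher at day 14: Mrps22, Mrpl13, Mrpl42, Mrps18c, Mrpl50, Mrps31, Mrpl33, Mrpl19, Mrps33 and Mrps17. In that fit 22.5% of all genes were called, 12.6% higher and 9.89% lower. The median log2 fold change was then 0.44 for the 77 genes and 0.13 for all genes.

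The genes with values below 0 at day 14 were Mrpl23 (-0.09 ± 0.64), Mrpl38 (-0.07 ± 0.21), Mrpl10 (-0.05 ± 0.19), Mrpl9 (-0.03 ± 0.22) and Mrpl35 (-0.02 ± 0.36). All 5 differences were smaller than their SE. Mrpl23 rests on 144 reads over all libraries. Mrpl4, among the most abundant, had 167, 198 and 274 CPM in knockout libraries, against 222, 212 and 152 CPM in wild type, with overlap (0.12 ± 0.22).

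At day 14 the log2 fold change went with coding length at r -0.39 (rho -0.34) across the 77 genes; the difference from day 7 was not tested. In the 4 length classes from short to long, the medians were 0.62, 0.61, 0.38 and 0.35 for the 77 genes and 0.57, 0.38, 0.24 and -0.12 for other genes. With the length trend removed the median was 0.12, with 50 of 77 above 0, beside a median of -0.06 and 45.1% above 0 over all genes, so the set stood 0.18 above all genes. With GC content removed as well it was 0.14, with 57 of 77 above 0, beside -0.03 and 47% over all genes; edgeR called 0 in both (1.92% and 4.65% of all genes called). The comparisons at day 14 and day 7 share no libraries. As fitted, 72 genes were above 0 in both, and across the 77 genes, which are not independent, their log2 fold changes had r 0.48 (rho 0.43). Both comparisons carry a length trend: mean slopes were 0.058 in knockout and 0.300 in wild type at day 14, and 0.0755 and 0.405 at day 7. Genes above 0 at both days with that trend removed were not counted.

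Markers of dividing cells also differed at day 14. The summed level of 18 genes of G2 and M phase was 996, 1442 and 2020 CPM in knockout libraries, against 116, 130 and 866 CPM in wild type. Wild-type library 3, the highest wild-type library there, was the lowest in summed mitochondrial ribosomal protein genes, at 3726 CPM. It also had the steepest length slope of its group (0.375). Knockout library 3 was the highest at day 14 in both sums (2020 and 6931 CPM). At day 7 knockout library 4 was the highest in both, at 206 and 6859 CPM. The division markers then summed to 90.5 to 96.7 CPM in the other knockout libraries and 87.0 to 98.0 CPM in wild type. Of the 18 genes, 2 rose at day 14 in knockout over wild type by edgeR, Cdc20 (2.33 ± 0.44, adjusted p = 0.0209) and Plk1 (2.51 ± 0.55, adjusted p = 0.0362), both regulators of mitosis. Both tested mast cell markers, Cpa3 and Kit, were at day 14 higher in knockout cultures than in wild-type ones (3.80 ± 0.77, edgeR adjusted p = 0.0270 for Cpa3). The summed mast cell list ran from 22.5 to 130 CPM in knockout at day 14, against 1.00 to 5.65 CPM in the wild type, and from 46.9 to 82.2 CPM in knockout at day 7, against 30.3 to 64.4 CPM in the wild type, with Ms4a2 and Mcpt8 at 0. Over time Cpa3 and Kit both fell in wild type by edgeR. The haemoglobin gene Hba-a1 was higher too, at levels of 0.655 ± 0.0584 CPM in knockout, against 0.0111 ± 0.0193 CPM in the wild type (SD, n = 3 each). The part of these genes in the values of the 77 was not tested.

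The difference between knockout and wild type was not shown to depend on the day. In the interaction of genotype and day, edgeR called 0 of 77 genes, beside 0.0863% of all genes (0.0604% higher and 0.0259% lower), and 0 reached an unadjusted p under 0.05, beside 7.97% of all genes. DESeq2 called 0 (1.41% of all genes called), as did limma-voom with sample weights (4.13% of all genes called) and without (0.0949% of all genes called). The median was 0.01 for the 77 genes and 0.06 for all genes. The smallest adjusted p was 0.786, for Mrps34 (-0.52 ± 0.31). Mrps34 had 140, 128 and 178 CPM in knockout libraries at day 14, against 165, 161 and 104 CPM in wild type. At day 7 it had 159, 135, 187 and 236 CPM in knockout, against 109, 111, 133 and 126 CPM in the wild type. Mrpl35 had an interaction value of -0.73 ± 0.48, Mrpl23 one of -0.64 ± 0.85 and Mrps33 one of 0.66 ± 0.69. Without knockout library 3 at day 14 the median of the interaction was -0.24.

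Over time in culture 3 genes of the set rose in wild type and 1 in knockout. edgeR called 3 of 77 higher and 0 lower at day 14 against day 7 in wild-type cultures, where 13.2% of all tested genes were called higher and 7.33% lower. In both directions together 20.5% of all tested genes were called. DESeq2 called 4 higher (Mrpl52, Mrpl35, Mrps6 and Mrpl51) and 1 lower (25.8% of all genes called, 15.6% higher and 10.1% lower). limma-voom called 7 higher and 3 lower with sample weights (39.8% of all genes called, 19.3% higher and 20.4% lower). Without weights it called 3 higher and 0 lower (21.1% of all genes called, 12% higher and 9.05% lower). The median log2 fold change was 0.09, against 0.00 over all tested genes. In knockout cultures 1 of 77 was called higher and 0 lower, where 10.5% of all genes were called higher and 4.92% lower, and the median was 0.05. DESeq2 also called 1 higher there (19.7% of all genes called, 12.3% higher and 7.39% lower). If the sequencing sets read from the identifiers hold, all knockout libraries at day 14 were in one and all at day 7 in the other. Day and set then cannot be told apart in knockout. With each library's length trend removed the medians were -0.06 in wild type and -0.13 in knockout, and those of all genes were -0.06 and -0.14. Without knockout library 3 at day 14 the knockout median was -0.16 and 0 were called (6.54% of all genes called higher and 2.47% lower). Cell division markers rose over the same days, 9 of 18 in wild type and 16 of 18 in knockout by edgeR. Summed myeloid markers were 7.36 to 28.6 CPM in wild type at day 14, against 1.17 to 2.42 CPM at day 7, and 15.7 to 26.7 CPM in knockout at day 14, against 1.89 to 6.07 CPM at day 7, with Itgam at 0. Eomes, the tested NK cell marker and also a T cell factor, rose in wild type (2.74 ± 0.44, edgeR adjusted p = 0.000584) and in knockout (4.05 ± 0.47, edgeR adjusted p = 0.000112), with Ncr1 at 0. Of 2 tested mast cell markers, 2 fell in wild type, and Kit rose in knockout. Of 2 tested B cell markers 1 fell in wild type and 2 in knockout, and of 6 T cell markers 1 fell in wild type and 2 in knockout. The part of these in the values was not tested.

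Mrpl52 rose most. It had 44.8, 55.7 and 54.0 CPM in wild-type libraries at day 14, against 9.91, 9.96, 11.8 and 12.1 CPM at day 7. The groups lay far apart, a 4.71-fold difference (log2 fold change 2.23 ± 0.37, edgeR adjusted p = 0.000731). In knockout it had 43.6, 65.3 and 99.9 CPM at day 14, against 15.6, 13.3, 18.1 and 42.0 CPM at day 7. The libraries did not overlap, but library 1 at day 14 and library 4 at day 7 were close to each other (1.65 ± 0.36, edgeR adjusted p = 0.00666). Without knockout library 3 at day 14 that value was 1.29 (adjusted p = 0.0504), and with the sequencing set as a term it was 1.83 (adjusted p = 0.0920). Leaving out any one library, the wild-type rise ran from 2.17 to 2.32 and was called in 14 of 14 fits.

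Mrpl35, a large-subunit protein with a bacterial relative, was higher in wild type at day 14, with 40.5, 48.4 and 97.7 CPM, against 23.5, 22.4, 25.3 and 25.7 CPM at day 7. Library 3 at day 14 stood well above the other 2, and all 3 stood above day 7. The log2 fold change was 1.36 ± 0.34 (edgeR adjusted p = 0.0102), called in 14 of 14 fits that left out one library, from 0.88 to 1.59. In knockout Mrpl35 had 41.1, 53.3 and 89.4 CPM at day 14, against 31.2, 30.4, 38.2 and 58.3 CPM at day 7, with overlap (0.63 ± 0.33, edgeR adjusted p = 0.250). Mrps6, a small-subunit protein with a bacterial relative, had 23.9, 24.8 and 18.5 CPM in wild type at day 14, against 12.5, 11.7, 13.5 and 14.0 CPM at day 7 (0.79 ± 0.25, edgeR adjusted p = 0.0344). That call held in 7 of 14 fits that left out one library, with adjusted p from 0.0139 to 0.0990. In knockout Mrps6 had 33.1, 26.2 and 30.6 CPM at day 14, against 16.4, 14.0, 20.5 and 29.4 CPM at day 7, where library 4 overlapped the later group (0.58 ± 0.25). Of the 50-base stretches of Mrps6, 42.0% occur in other annotated genes.

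**Figure D4:**
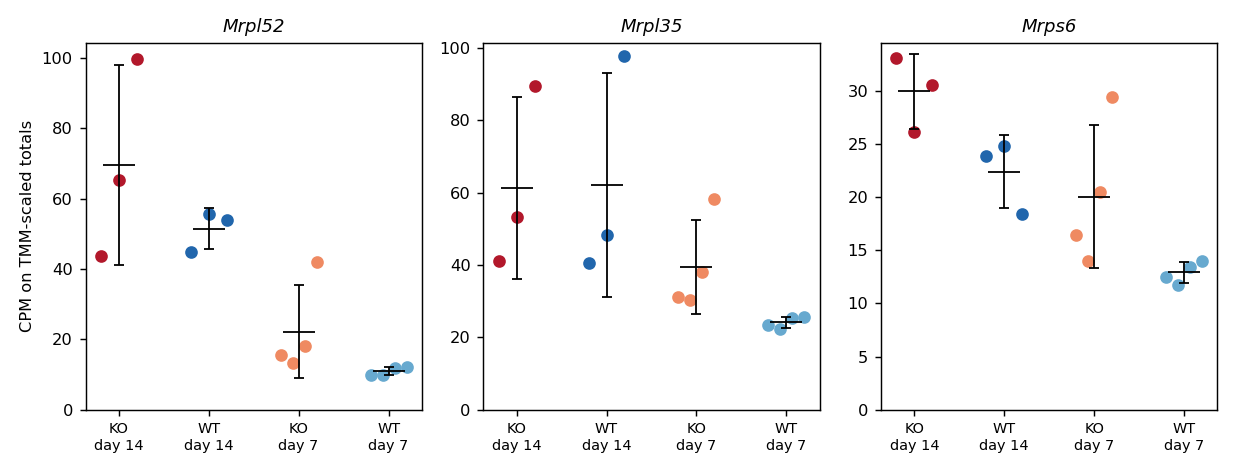
Levels (y axis, CPM on TMM-scaled totals, from 0) of Mrpl52, Mrpl35 and Mrps6 in each library of the 4 groups on the x axis; coloured points are libraries and black marks the mean ± SD. Mrpl52 in wild type lies at 44.8 to 55.7 CPM at day 14 and at 9.91 to 12.1 CPM at day 7.

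Of the 4 lowest log2 fold changes over time in wild type, Mrpl58, Mrps33, Mrpl9 and Mrps30, edgeR called none. Mrpl58 had 58.4, 48.2 and 37.4 CPM in wild type at day 14, against 71.1, 66.997, 68.0 and 75.8 CPM at day 7, with no overlap (-0.55 ± 0.21, edgeR adjusted p = 0.0831). Mrps30 had 158, 151 and 118 CPM in wild type at day 14, against 186, 180, 212 and 215 CPM at day 7, also without overlap (-0.48 ± 0.17, edgeR adjusted p = 0.0691). Mrpl9 had 52.2, 83.4 and 47.6 CPM in wild type at day 14, against 80.7, 83.4, 87.7 and 91.5 CPM at day 7 (-0.49 ± 0.20, edgeR adjusted p = 0.108). In knockout Mrpl9 had 64.1, 50.8 and 64.5 CPM at day 14, against 90.2, 83.2, 81.0 and 72.1 CPM at day 7, without overlap (-0.45 ± 0.20, edgeR adjusted p = 0.170). The values of Mrps33 in wild type (-0.51 ± 0.51) and of Mrpl23, the lowest in knockout (-0.49 ± 0.60), were no larger than their SE. Other fits did call some of these lower in wild type: DESeq2 called Mrps30 (-0.46, adjusted p = 0.0430), limma-voom with sample weights called Mrpl9 (-0.51, adjusted p = 0.0214), and edgeR with the length trend removed called Mrpl58 (-0.74, adjusted p = 0.00812), in knockout too (-0.62, adjusted p = 0.0276). Across the 77 genes all wild-type libraries at day 14 lay above those at day 7 in 8 genes (17.2% of all genes) and below in 3 (13.8% of all genes). With GC and length trends removed edgeR called 5 higher and 19 lower in wild type and 2 higher and 14 lower in knockout. In that fit 14.5% of all genes were called higher and 18.8% lower in wild type, and 12.2% and 16.9% in knockout (33.3% and 29.1% in all). The median of all genes was -0.13 in wild type and -0.15 in knockout, and that of the 77 genes -0.14 in both.

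The promoters of Mrpl52, Mrpl35, Mrps6, Mrpl30 and Mrps11 are shown because the first 3 rose in wild type over time, Mrpl30 was among the highest at day 7, and Mrps11 shares its start region with Mrpl46. They run from 250 bases before to 50 bases after the annotated start, 5′ to 3′ on the gene's strand, from RefSeq on GRCm38.p6. Capitals mark letters matching motifs of NRF1, ETS factors such as GABPA (CCGGAAG) and YY1 (ATGGCGG) on either strand; these factors are known regulators of nuclear genes for mitochondria.
Mrpl52: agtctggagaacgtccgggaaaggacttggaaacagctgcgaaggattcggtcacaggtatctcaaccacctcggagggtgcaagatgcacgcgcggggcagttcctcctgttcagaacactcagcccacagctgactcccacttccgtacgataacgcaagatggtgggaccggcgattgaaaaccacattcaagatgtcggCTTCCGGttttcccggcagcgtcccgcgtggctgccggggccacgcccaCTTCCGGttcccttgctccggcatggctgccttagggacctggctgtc
Mrpl35: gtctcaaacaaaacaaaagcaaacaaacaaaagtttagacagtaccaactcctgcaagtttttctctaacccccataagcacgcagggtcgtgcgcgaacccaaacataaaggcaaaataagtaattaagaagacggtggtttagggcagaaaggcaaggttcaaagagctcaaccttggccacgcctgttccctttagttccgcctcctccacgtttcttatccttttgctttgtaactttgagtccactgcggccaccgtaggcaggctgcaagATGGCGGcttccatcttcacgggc
Mrps6: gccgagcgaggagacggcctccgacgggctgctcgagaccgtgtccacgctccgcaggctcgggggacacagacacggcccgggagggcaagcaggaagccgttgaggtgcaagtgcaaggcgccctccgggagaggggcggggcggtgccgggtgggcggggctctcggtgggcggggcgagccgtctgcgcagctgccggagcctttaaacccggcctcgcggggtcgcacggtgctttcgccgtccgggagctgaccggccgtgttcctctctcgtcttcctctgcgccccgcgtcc
Mrpl30: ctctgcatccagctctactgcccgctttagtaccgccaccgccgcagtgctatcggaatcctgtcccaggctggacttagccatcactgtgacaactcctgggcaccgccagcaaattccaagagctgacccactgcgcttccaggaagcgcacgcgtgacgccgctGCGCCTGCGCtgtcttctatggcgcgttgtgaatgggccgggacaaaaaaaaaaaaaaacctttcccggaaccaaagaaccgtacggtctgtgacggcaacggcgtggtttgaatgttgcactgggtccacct
Mrps11: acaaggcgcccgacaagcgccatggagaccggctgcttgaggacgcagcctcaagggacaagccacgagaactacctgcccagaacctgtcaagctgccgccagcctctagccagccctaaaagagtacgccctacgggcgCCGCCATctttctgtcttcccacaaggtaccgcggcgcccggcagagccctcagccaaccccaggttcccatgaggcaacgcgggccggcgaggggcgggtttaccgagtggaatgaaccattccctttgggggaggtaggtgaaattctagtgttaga

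The windows lie at chr14:54426659-54426958 on the plus strand for Mrpl52, chr6:71823735-71824034 on the minus strand for Mrpl35, chr16:92058086-92058385 on the plus strand for Mrps6, chr1:37890227-37890526 on the plus strand for Mrpl30 and chr7:78782881-78783180 on the plus strand for Mrps11. In Mrpl52 the ETS letters begin at base -47 and at base 3 from the start, and in Mrpl35 the YY1 letters begin at base 27. The window of Mrps6 holds none of the motifs searched. Of the 77 genes, 68 had a promoter in the RefSeq table, with 74 windows of 300 bases. NRF1 letters occurred in 17.6% of these windows, against 4.60% of all 32851 windows, ETS letters in 35.1%, against 8.86%, YY1 letters in 17.6%, against 4.05%, and the E-box CACGTG in 9.46%, against 7.15%. These matches describe letters and were not tested as sites. The genes with ETS letters (26) had a median log2 fold change at day 7 of 0.59 and those without (42) of 0.51; for NRF1 the medians were 0.51 with (13) and 0.53 without (55). Mrps11 and Mrpl46 start 42 bases apart on opposite strands, and their log2 levels had r 0.84 over 14 libraries.

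Most of the genes varied together. Each gene's log2 level was compared with the median of the other 76 over 14 libraries, which share depth and the length trend; the median r was 0.84 and 51 of 77 exceeded 0.8. Mrps21 (0.97), Mrpl15 (0.96) and Mrpl20 (0.96) followed the median most closely. Mrpl9 (-0.06) and Mrpl1 (0.25) followed it least. Mrpl1, a large-subunit protein with a bacterial relative, had 23.5, 12.7 and 20.6 CPM in knockout libraries at day 14, against 15.9, 5.54 and 33.2 CPM in wild type, a wide spread within both groups. At day 7 it had 7.66, 12.8, 11.6 and 20.6 CPM in knockout, against 11.03, 10.5, 8.78 and 7.44 CPM in the wild type.

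**Figure D5:**
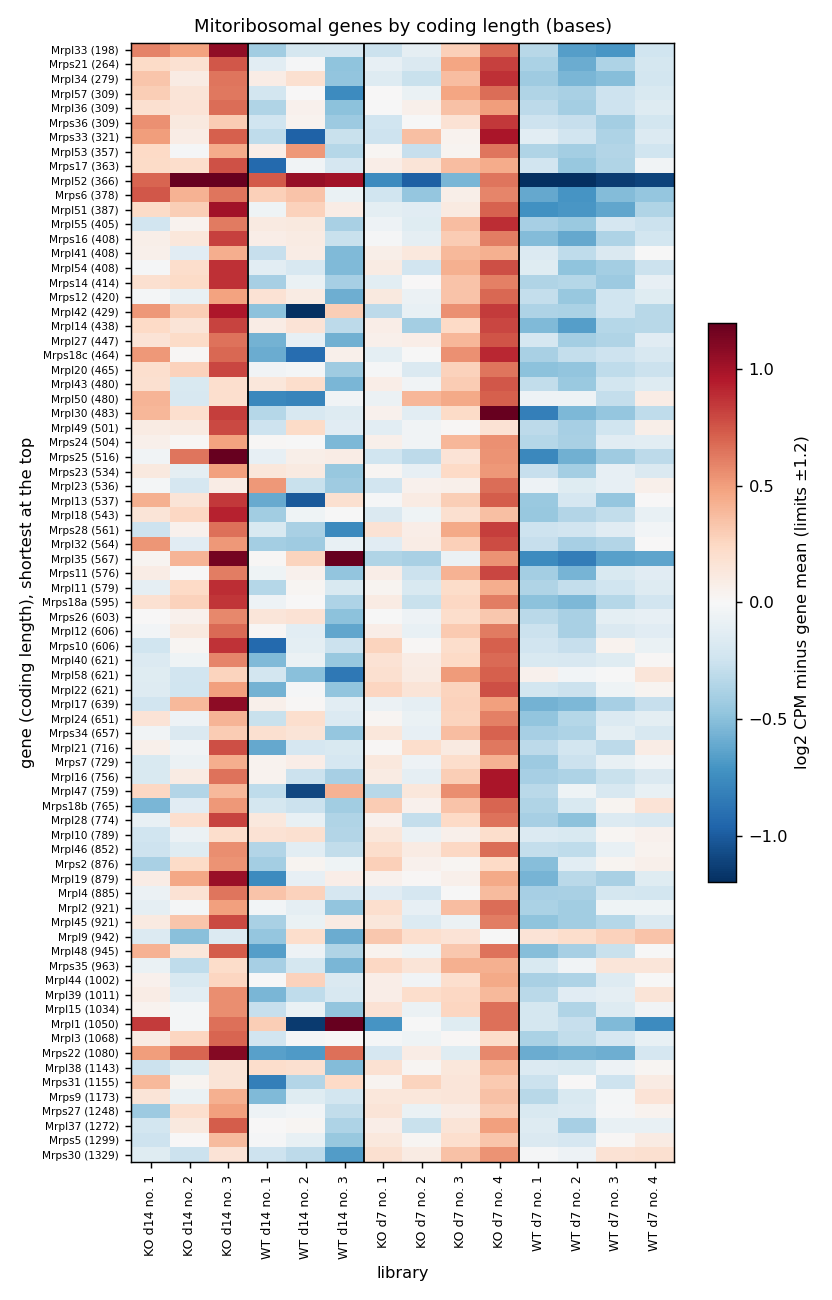
Log2 CPM minus the gene's mean over 14 libraries (colour, limits ±1.2) for the 77 genes (rows, shortest coding sequence at the top) in each library (columns: knockout day 14, wild type day 14, knockout day 7, wild type day 7). Knockout library 3 at day 14 and knockout library 4 at day 7 are red in nearly all rows, wild-type libraries at day 7 are mostly blue, and the rows of Mrpl52, Mrpl35, Mrpl1 and Mrpl9 stand out from their neighbours.

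The 5 tested genes outside the set whose log2 levels were most like its median were Emc4 (r 0.993, coding length 552), Ndufb8 (0.986, 567), Atp5g3 (0.985, 426), Arpp19 (0.983, 438) and Ly6e (0.978, 411), over 14 libraries. Their coding lengths, in bases, all lie below the median of the 77 genes.

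Other genes of mitochondrial gene expression were described from fixed lists. Of 5 mitochondrial ribosomal proteins with other names, none was called between genotypes, and the median log2 fold change was 0.54 at day 7 and 0.13 at day 14. Chchd1 of the small subunit averaged 66.4 ± 11.2 CPM in knockout, against 34.0 ± 3.01 CPM in the wild type, at day 14 (SD, n = 3 each), and 49.9 ± 10.9 CPM in knockout, against 32.8 ± 4.38 CPM in the wild type, at day 7 (SD, n = 4 each). Ptcd3, an RNA-binding protein of the small subunit, averaged 34.3 ± 13.7 CPM in knockout, against 43.1 ± 11.3 CPM in the wild type, at day 7 (SD, n = 4 each).

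Translation factors (13 tested) had medians of 0.21 at day 7 and 0.16 at day 14, and 26 assembly and rRNA modification genes had 0.18 and 0.14. The 20 mitochondrial aminoacyl-tRNA synthetases, which charge the tRNAs, had 0.02 and 0.19. The 22 genes of mitochondrial transcription and RNA processing had 0.06 and 0.24, and 25 genes of protein import 0.53 and 0.49. Proteins encoded by mitochondrial DNA (12 tested) had 0.33 at both days. The summed level of all 13 genes of that list varied widely within groups. At day 14 it was 3067 to 5362 CPM in knockout, against 5610, 1471 and 4945 CPM in wild-type libraries 1 to 3. At day 7 it was 4033 to 9206 CPM in knockout, against 3578 to 6673 CPM in wild type. edgeR called 0 genes of these 6 lists between genotypes at either day; DESeq2 calls were not counted for them. At an unadjusted p under 0.05, import had 12 higher at day 7 and 6 at day 14, and the other 5 lists had 0 to 3 higher and 0 to 3 lower each. Of all tested genes, 11.4% were higher at each day, and 12.1% were lower at day 7 and 10.3% at day 14. The list medians are as fitted, with no length trend removed. Coding lengths were not compared between the lists, so their order cannot be told apart from one by length.

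Over time edgeR called 7 of the 118 tested genes of these 6 lists in wild type (5.93%, beside 20.5% of all tested genes) and 5 in knockout (4.24%, beside 15.5%). The 12 tested genes encoded by mitochondrial DNA had medians of -0.43 in wild type and -0.67 in knockout, with 11 of 12 below 0 in each. Of these, 1 was called, mt-Nd6 in wild type (-1.11 ± 0.35, edgeR adjusted p = 0.0393). These medians carry the wide spread within groups given above, where wild-type library 2 at day 14 had the lowest sum. Tars2, the threonyl-tRNA synthetase, averaged 176 ± 14.9 CPM in wild type at day 14 (SD, n = 3), against 61.7 ± 7.26 CPM at day 7 (SD, n = 4), a log2 fold change of 1.52 ± 0.27 (edgeR adjusted p = 0.00129). It rose in knockout as well (0.87 ± 0.27, edgeR adjusted p = 0.0426). Iars2, the isoleucyl-tRNA synthetase, fell in wild type (-1.02 ± 0.29, edgeR adjusted p = 0.0203). Afg3l2, a protease that matures Mrpl32, rose in wild type (0.77 ± 0.22, edgeR adjusted p = 0.0231). Mrpl32 itself had 27.7, 27.4 and 34.5 CPM in wild type at day 14, against 30.4, 27.9, 28.8 and 37.0 CPM at day 7, with overlap (-0.06 ± 0.25). In knockout Eral1, which binds the small-subunit rRNA, rose (0.68 ± 0.21, edgeR adjusted p = 0.0421) and the assembly helicase gene Ddx28 fell (-0.74 ± 0.20, edgeR adjusted p = 0.0234). The 12 regulators of growth and mitochondrial biogenesis had medians of -0.59 at day 7 and -0.24 at day 14 between genotypes, with 0 called. Their medians too are as fitted, with no length trend removed. Over time 2 of the 12 rose in knockout, beside 10.5% of all genes called higher, and 0 were called in wild type. Mycn rose in knockout (2.53 ± 0.50, edgeR adjusted p = 0.00332), to 7.81 ± 3.28 CPM at day 14 (SD, n = 3), against 1.34 ± 0.492 CPM at day 7 (SD, n = 4). Myc rose as well (0.66 ± 0.21, edgeR adjusted p = 0.0489), to 937 ± 215 CPM at day 14 (SD, n = 3), against 594 ± 67.6 CPM at day 7 (SD, n = 4).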

How the data were processed

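GSNAP was the aligner and GRCm38 the build, per the submitters' processing notes. The sources used here name neither the counting tool nor its annotation. The authors deposited, per the file headers, whole-number counts, coding width and RPKM per gene and library. The RPKM values, as deposited, served only to check depth: they imply totals of which the counts made up 38.9% to 44.9%. Symbols and coordinates came from mouse GENCODE release M21.

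Counts were filtered with filterByExpr (11591 genes kept), scaled by TMM and fitted with edgeR 4.0.16 in R 4.3.3 (robust quasi-likelihood, 1 mean per group over 14 libraries), with Benjamini-Hochberg adjustment over all tested genes. The SE is the log2 fold change divided by the square root of F. On simulated data the fit recovered 23.2% of 2-fold changes at day 7, 8% at day 14 and 5% for the interaction. Over time it recovered 17.2% in wild type and 18.2% in knockout. For 4-fold changes the shares were, in the same order, 76%, 66%, 34%, 66.7% and 75%. Small differences can thus go uncalled. Alternatives used DESeq2 1.42.0, limma 3.58.1, other scalings and filters, splines over length and GC, a sequencing set term, a replicate block and single libraries left out. No pair of replicates agreed within sampling noise. Strand use is not given, so overlapping genes are uncertain.

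The genes and lists were chosen with earlier results of these data known. Named genes were those called, the 4 highest and 4 lowest of each comparison, the 5 most and 3 least abundant per kilobase and 9 chosen by role; in lists of other genes, up to 4 called genes with the smallest adjusted p. Mrpl32, Mrps21, Mrpl15, Mrpl20, Chchd1, Ptcd3 and the genes called under alternatives were named after their values were seen. Not every gene that the rule names is described.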

Additional observations from a re-analysis of the deposited data

Results flagged for a closer look

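In 64 groups of 4 libraries examined (the named genes and the 2 summaries of all 77, at day 7), 2 held a library far from the others, where chance picks out about 1 in 20. Mrpl52 stood at 42.0 CPM in knockout library 4 at day 7, against 13.3 to 18.1 CPM in the other 3, a gap of 0.833 of the group's range. Mrps22 stood at 13.9 CPM in wild-type library 4 at day 7, against 10.5 to 10.7 CPM in the other 3, a gap of 0.930 of the range. No explanation was tested for either.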

How the results depend on the processing

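Most values kept their direction and side of the threshold: of the alternative values of single named genes, 1604 did, 47 newly passed, 9 no longer passed and 38 changed sign. Nearly all were uncalled in the main fit, and the count does not measure how far a value moved. In the fit without the length trend 56 of 66 kept both, while the day 7 median was 0.15, against 0.51 in the main fit. Between genotypes DESeq2 called 6 higher at day 14 and 3 at day 7 (4.67% and 2.39% of all genes called higher). Over time in wild type it called 4 higher and 1 lower (25.8% of all genes called). limma-voom with sample weights called 12 higher at day 14 and 67 at day 7 (9.7% and 20% of all genes called higher). Over time it called 3 in knockout (23.5% of all genes called), and 7 higher and 3 lower in wild type (39.8%). Between genotypes it gave Mrps34 a value of -0.073 at day 14. Without weights, an alternative chosen after seeing the data, Mrpl23 was 0.25 and Mrpl9 0.0095 at day 14. With the length trend removed the medians were 0.12 at day 14 and 0.15 at day 7. That fit called 2 lower over time in each genotype (23.5% of all genes called in wild type, 10.3% lower, and 17.7% in knockout, 8.19% lower). At day 14 Mrpl4 (-0.13), Mrps12 (-0.25), Mrps18b (-0.0036), Mrps24 (-0.073) and Mrps34 (-0.30) changed sign. At day 7 Mrpl10 (-0.10), Mrpl49 (-0.20) and Mrpl58 (-0.0078) did. With GC as well the medians were 0.14 at both days, with 2 higher and 14 lower over time in knockout and 5 and 19 in wild type; Mrpl38 was 0.11 at day 14, and Mrpl10 -0.074, Mrpl11 -0.0080, Mrpl49 -0.21 and Mrpl58 -0.011 at day 7. Mrps34 was -0.040 at day 14 with the compared libraries only, and Mrpl9 0.032 at day 7 with upper quartile scaling. With a sequencing set term Mrpl10 was 0.023 and Mrpl9 0.14 at day 14. That term left 0 called over time in knockout, where 2.27% of all genes were called higher and 0.923% lower. The causes were not tested.

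Deviations from the group mean over all tested genes had correlations of -0.46 to 0.42 between same-numbered libraries. They also hold each library's own length trend, so they cannot decide whether the numbers are a pairing. With a replicate block 0 were called between genotypes (0.0604% of all genes called higher and 0.069% lower at day 7, 1.26% and 0.776% at day 14). Medians were then 0.50 at day 7 and 0.41 at day 14, and Mrpl23 was 0.0027 at day 14. Leaving out single libraries, the median ran from 0.38 to 0.61 at day 7, 0.20 to 0.54 at day 14 and -0.24 to 0.12 for the interaction. Counts called higher ran from 0 to 10 at day 14 (0.263% to 12.6% of all genes called higher). Over time in knockout they ran from 0 to 2 (6.54% to 13.5% of all genes). Counts called lower over time in wild type ran from 0 to 2 (4.76% to 15.7% of all genes called lower). At day 14 Mrpl10 ran from -0.21 to 0.051, Mrpl38 from -0.28 to 0.046, Mrpl23 from -0.50 to 0.95, Mrpl9 from -0.18 to 0.26, Mrpl4 from -0.10 to 0.27, Mrps18b from -0.035 to 0.53 and Mrps34 from -0.13 to 0.17. At day 7 Mrpl9 ran from -0.12 to 0.0020, and the interaction of Mrpl23 from -1.04 to 0.41. Depth limits Mrpl23, Mrps33 and Mrps36, with 144, 366 and 455 reads in all.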
